A study of Homo sapiens with 16 samples.

Results

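The genes described are 10 members of the TGF-beta pathway and its ID effectors: TGFB1, TGFBR1, TGFBR2, SMAD3, SMAD6, SMAD7, SKI, SKIL, ID1 and ID2. They were taken from the table of normalized counts by gene symbol, as 10 of its 62700 rows, and all 10 passed the filter on low values (mean normalized count of 10 or more) that left 14643 genes to be tested. The study asked how a retinoid that prefers the receptor RARA compares with one that activates every retinoic acid receptor. It used OCI-AML3, an established human acute myeloid leukemia cell line, with RNA-seq in 16 libraries from 5 groups. Untreated cells gave 4 libraries. The other groups had 3 libraries each and were treated for 3 h with all-trans retinoic acid (ATRA, the natural pan-RAR agonist), with Am80 (tamibarotene, a synthetic RARA agonist written AM80 in the labels), with ATRA plus GSK-LSD1 and MB3, or with Am80 plus GSK-LSD1 and MB3. GSK-LSD1 inhibits the histone demethylase LSD1 and MB3 inhibits the histone acetyltransferase GCN5. The study's figure legends for the OCI-AML3 expression data give 0.1 µM for ATRA, Am80 and GSK-LSD1 and 100 µM for MB3. Its methods give the same concentrations for longer treatments of cell lines. No group received the inhibitors without a retinoid, so their effect was measured only in the presence of ATRA or Am80. All results come from 1 cell line, and nothing in the labels says that the libraries of a group came from separate cultures, so p-values measure the spread between these libraries, which may be technical.

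TGF-beta ligands bind a type II receptor, which phosphorylates a type I receptor, which in turn phosphorylates the receptor SMADs that enter the nucleus with SMAD4. SMAD6 and SMAD7 are inhibitory SMADs, and SKI and SKIL are corepressors that hold SMAD complexes in check. BMP ligands use related receptors and SMAD1, SMAD5 and SMAD9, and the ID genes are classical BMP targets whose products block basic helix-loop-helix factors by dimerizing with E proteins. In hematopoietic cells TGF-beta is best known for limiting proliferation, and ID1 has been described as a gene that responds to retinoic acid in myeloid leukemia cells.

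The promoters of 3 members are shown because ID1 and ID2 moved in opposite directions and because SMAD6 carries a complete SMAD palindrome. Each line gives the 250 bases before a RefSeq start on GRCh38.p14, in the direction of transcription, with capitals marking matches to the motifs searched. The windows are chr20:31605039-31605288 for ID1, chr2:8681806-8682055 for ID2 and chr15:66701986-66702235 for SMAD6, all on the plus strand.
ID1: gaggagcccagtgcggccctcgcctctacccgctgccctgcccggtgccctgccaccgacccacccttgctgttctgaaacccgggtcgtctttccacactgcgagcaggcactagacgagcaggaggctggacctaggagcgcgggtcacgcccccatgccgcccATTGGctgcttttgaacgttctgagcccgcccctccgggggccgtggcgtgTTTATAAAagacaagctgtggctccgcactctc
ID2: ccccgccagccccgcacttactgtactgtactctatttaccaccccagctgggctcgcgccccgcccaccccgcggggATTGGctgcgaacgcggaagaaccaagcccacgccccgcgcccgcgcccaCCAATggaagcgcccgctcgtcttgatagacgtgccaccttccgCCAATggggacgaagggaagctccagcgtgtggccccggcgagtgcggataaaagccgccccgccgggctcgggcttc
SMAD6: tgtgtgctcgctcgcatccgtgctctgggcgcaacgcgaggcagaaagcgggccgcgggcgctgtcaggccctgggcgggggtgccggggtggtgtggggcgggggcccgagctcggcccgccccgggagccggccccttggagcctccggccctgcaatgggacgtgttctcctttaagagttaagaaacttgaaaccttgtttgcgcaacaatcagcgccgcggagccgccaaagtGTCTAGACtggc
The motifs, searched on both strands, were the SMAD palindrome GTCTAGAC, the GC box GGCGCC that BMP-activated SMADs bind, the retinoid receptor half-sites AGGTCA and AGTTCA, direct repeats of AGGTCA with 5 or 2 bases between them, the TATA box TATAAA and the CCAAT box CCAAT. A window was at hand for 9 of the 10 members, SKI being the other, and for 27303 genes in all, with the first start listed taken for each gene. The palindrome stood in SMAD6, from 12 to 5 bases before the start, and in 0.176% of all windows. A TATA box was found in ID1, from 31 to 26 bases before the start and with a match of the other strand overlapping it, and in 11.1% of all windows. ID1 also had 1 CCAAT box, from 84 to 80 bases before the start, and ID2 had 3, the nearest from 78 to 74 bases before it, against 33.0% of all windows with at least 1. GGCGCC occurred in SMAD3, from 136 to 131 and from 106 to 101 bases before the start, in SKIL from 190 to 185 bases before it, and in 16.1% of all windows. AGTTCA was found on the other strand of TGFBR2, from 20 to 15 bases before the start, and in 8.91% of all windows. No member window held AGGTCA (12.1% of all windows) or a direct repeat, which says only that these letters are not in these windows. The matches are descriptions of the sequence and were not tested for binding.

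The libraries held 11963898 to 33789718 reads assigned to genes, and the members had 120 to 9816 reads each in any library. Untreated replicate 4 and Am80 replicate 2 stood apart from their groups: the chi-square per degree of freedom between replicates was 17.1 to 25.9 for pairs with either of them and 2.80 to 6.24 for the other pairs. Results that rest on these libraries are given with and without them. All 8 myeloid markers checked (CD33, SPI1, CEBPA, ANPEP, CSF3R, LYZ, MPO and ITGAM) were at a mean of 10 or more, with a summed level of 22702 to 30308 normalized counts per library. Of 8 markers of other cell types, CD3E, MS4A1, HBB, EPCAM and COL1A1 were at 0 to 4.43 normalized counts in every library. PECAM1, which myeloid cells also make, accounted for most of their sum, which was 1004 to 1196 in untreated libraries, 2544 to 2808 with a retinoid and 1689 to 2190 with the combinations. It differed between the groups, and the part of other cell types in their changes was not tested. In a bulk sample, fewer cells making a transcript and less of it per cell cannot be told apart. All members are protein coding genes, and their positions below are those of GENCODE 29 on GRCh38, on the plus strand unless stated. In that annotation no member shares exon sequence with another gene on its own strand. On the other strand, 6.64% of the exon bases of TGFB1 lie over HNRNPUL1, 2.0% of those of SMAD3 over AC087482.1 and 1.72% of those of ID2 over ID2-AS1, and the strand setting of the counting is not given in the sources used here.

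Levels of different genes were compared per kb of exon. In untreated cells the order was TGFB1 (1329 ± 108 normalized counts per kb, SD, n = 4), TGFBR1 (857 ± 98.1), SKI (554 ± 82.4), ID1 (438 ± 112), ID2 (357 ± 27.1), TGFBR2 (171 ± 7.89), SKIL (143 ± 18.9), SMAD7 (70.0 ± 7.21), SMAD3 (38.1 ± 2.43) and SMAD6 (29.7 ± 0.367). The libraries of SKI overlapped those of ID1, and those of ID1 overlapped those of ID2, while all other neighbours in this order were separate in every library. The ligand and the type I receptor were thus the members with most transcript per length, and the inhibitory SMAD6 had the least. In each of the 4 treated groups ID1 stood first, at 1711 ± 121 with ATRA, 1577 ± 296 with Am80, 1909 ± 140 with ATRA and the inhibitors and 2137 ± 157 with Am80 and the inhibitors (per kb, SD, n = 3). With Am80 alone the libraries of ID1 and TGFB1 overlapped, as did those of TGFBR2 and ID2. SMAD3, SMAD7 and SMAD6 were the lowest 3 members in every group, and with treatment SMAD3 stood above SMAD7 instead of below it.

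**Figure D1:**
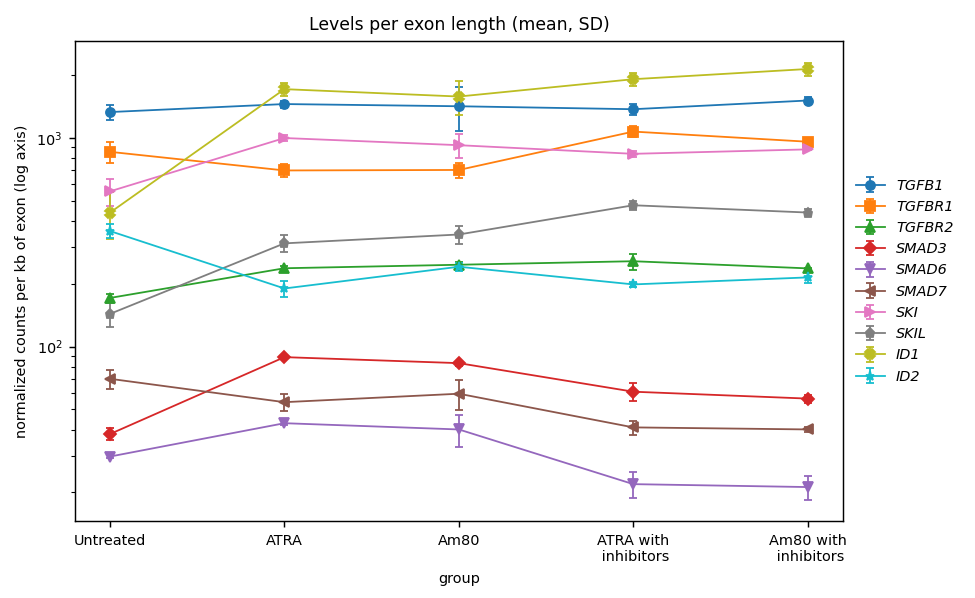
Mean normalized counts per kb of exon for each member in the 5 groups (log axis), with the SD over 4 untreated or 3 treated libraries as whiskers and lines joining the same gene. ID1 moves from a place below SKI in untreated cells (438) to the top in every treated group (1577 to 2137), while TGFB1 stays between 1329 and 1509.

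Tests used limma on log2(normalized count + 1), and a gene was called at a Benjamini-Hochberg adjusted p under 0.05 over all genes tested. ATRA changed 9 of the 10 members (6 higher, 3 lower), against 24.6% of all genes tested, and Am80 changed 8 (6 higher, 2 lower), against 28.8%. The 6 that rose with each retinoid were ID1, SMAD3, SKIL, SKI, TGFBR2 and SMAD6. The median log2 fold change of the members was 0.50 with ATRA and 0.47 with Am80, beside -0.02 and -0.01 for all genes. By direction, 12.5% of all genes rose and 12.1% fell with ATRA, and 15.4% rose and 13.4% fell with Am80. Changes of at least 1.5-fold were called in 5 members with ATRA and in 4 with Am80, against 9.45% and 10.2% of all genes. Both comparisons, and those of the combinations with untreated cells, share the same 4 untreated libraries. The members were chosen with earlier results of these data known, so their shares beside those of all genes are a description and not a test.

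**Figure D2:**
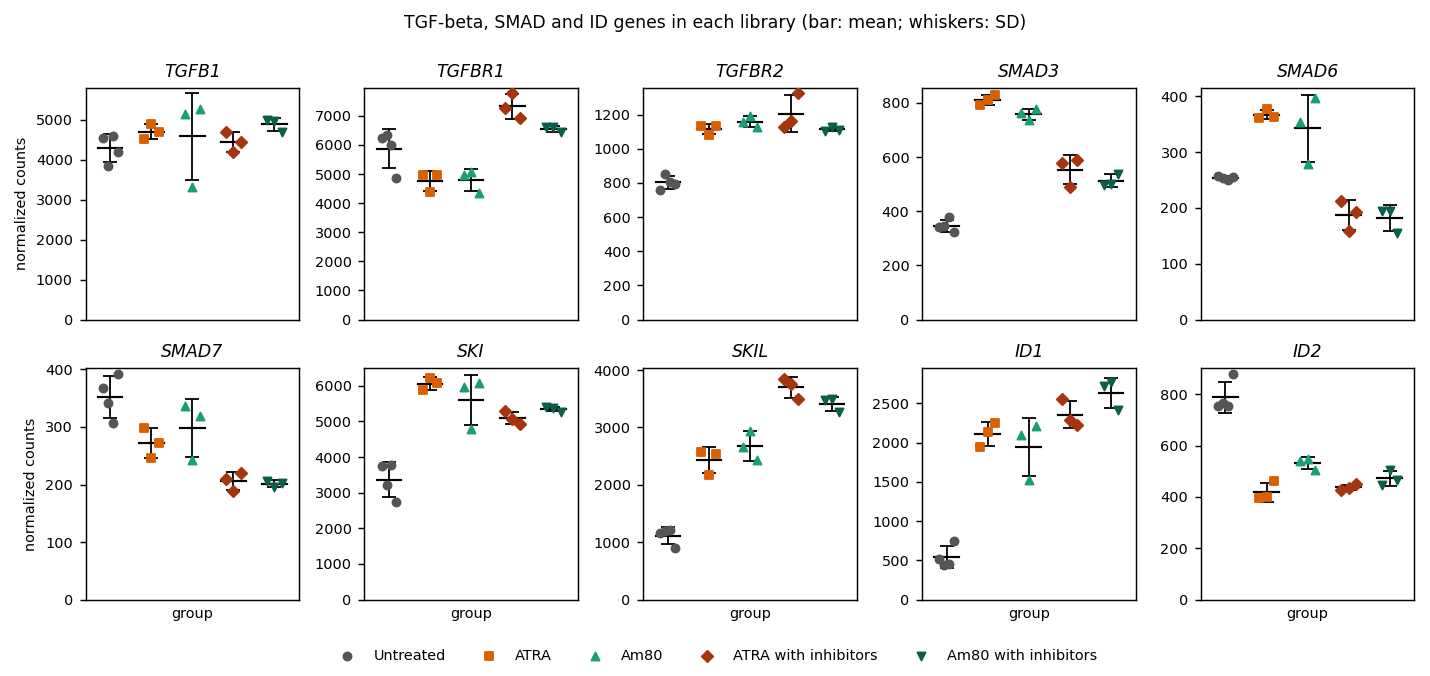
Normalized counts of each member in every library (points), with the group mean (bar) and SD (whiskers); each axis starts at 0. ID1, SKIL, SKI, SMAD3 and TGFBR2 lie above all untreated libraries in every treated library, ID2 lies below them, and SMAD6 lies above them with a retinoid alone and below them with the inhibitors.

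TGFB1 (ENSG00000105329.11, chr19:41301587-41353911, minus strand), the ligand, was the member for which no comparison was called. Its normalized counts were 4553, 3856, 4604 and 4196 in untreated cells. They were 4515, 4886 and 4698 with ATRA and 5150.5, 3329 and 5279.6 with Am80. The combinations gave 4697, 4186 and 4434 with ATRA and 5005, 4959 and 4697 with Am80. Am80 replicate 2 was the lowest of the 16 libraries. The change was 0.13 with ATRA (95% CI -0.10 to 0.36, adjusted p = 0.439) and 0.07 with Am80 (95% CI -0.17 to 0.30, adjusted p = 0.710). Without Am80 replicate 2 the change with Am80 was 0.28 and was called (adjusted p = 0.00676), so the absence of a call for Am80 rests on that library. Likewise the Am80 combination, at 0.19 (95% CI -0.04 to 0.42, adjusted p = 0.163) and above every untreated library, was called without Am80 replicate 2 (adjusted p = 0.0172), which is in neither group compared, and with only the groups compared (0.0493).

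TGFBR2 (ENSG00000163513.19, chr3:30606502-30694142), the type II receptor that binds the ligand first, rose to a similar level in every treated group. It was at 761, 852, 806 and 797 normalized counts in untreated cells. It was at 1131, 1083 and 1133 with ATRA and at 1159, 1191 and 1128 with Am80. With the inhibitors it was at 1128, 1161 and 1328 beside ATRA and at 1105, 1126 and 1111 beside Am80. No treated library overlapped an untreated one, and the log2 changes were 0.47, 0.53, 0.58 and 0.47 in that order (adjusted p between 2.19e-07 and 1.03e-05). Adding the inhibitors changed it by 0.11 (95% CI -0.04 to 0.25) beside ATRA and by -0.06 (95% CI -0.20 to 0.09) beside Am80, neither called, but with scaling to total reads the latter was -0.18 and called (adjusted p = 0.0432).

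TGFBR1 (ENSG00000106799.14, chr9:99104038-99154192), the type I receptor kinase, fell with a retinoid and rose on adding the inhibitors. It was at 6228, 6343, 6002 and 4878 normalized counts in untreated cells, where replicate 4 was the lowest. It was at 4968, 4379.5 and 4975 with ATRA and at 4956, 5083 and 4363 with Am80, so that some treated libraries lay above untreated replicate 4. The combinations were at 7280.2, 7783 and 6929 with ATRA and at 6612, 6619 and 6432 with Am80, above every untreated library. TGFBR1 fell by 0.29 on the log2 scale with ATRA (95% CI -0.46 to -0.12, adjusted p = 0.0126) and by 0.28 with Am80 (95% CI -0.46 to -0.11, adjusted p = 0.01295). The first call was lost without ATRA replicate 2 (-0.23, 0.0908). The second was lost without Am80 replicate 3 (-0.22, 0.0784) and with only the 2 groups in the fit (adjusted p = 0.0734), and without both libraries that stand apart the changes were -0.38 and -0.41. The inhibitors raised it by 0.62 beside ATRA (95% CI 0.43 to 0.80, adjusted p = 1.08e-05) and by 0.45 beside Am80 (95% CI 0.27 to 0.64, adjusted p = 0.000385). Against untreated cells the ATRA combination was at 0.33 (adjusted p = 0.00191), which was 0.18 and not called with scaling to total reads (adjusted p = 0.0797) and 0.13 and not called under quantile normalization (0.180). The Am80 combination was at 0.17 (95% CI -0.004 to 0.34, adjusted p = 0.0920), with a sign that turned under both of these scalings (-0.016 and -0.053).

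Among the SMADs, SMAD3 (ENSG00000166949.17, chr15:67063763-67195195), the receptor SMAD that carries TGF-beta and activin signals, rose with the retinoids and fell again when the inhibitors were added. Its untreated libraries held 340.3, 345, 377 and 325 normalized counts. With ATRA it reached 792, 809 and 829.7, and with Am80 763, 736 and 776. Together with the inhibitors it was at 578, 491 and 591 for ATRA and at 498, 502 and 539 for Am80. The 5 groups form 3 levels that do not overlap: untreated, combination and retinoid alone. The log2 changes were 1.22 with ATRA (95% CI 1.06 to 1.38, adjusted p = 5.45e-11) and 1.13 with Am80 (95% CI 0.97 to 1.29, adjusted p = 2.01e-10). Adding the inhibitors lowered SMAD3 by a log2 change of -0.55 beside ATRA (adjusted p = 1.51e-05) and of -0.56 beside Am80 (adjusted p = 1.51e-05). The combinations still lay above untreated cells, by 0.67 with ATRA and 0.56 with Am80 (adjusted p = 2.61e-07 and 2.69e-06).

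SMAD6 (ENSG00000137834.15, chr15:66702228-66782848), an inhibitory SMAD that acts mainly on BMP signaling, went above the untreated level with a retinoid and below it with the combination. It was at 258, 254, 250.4 and 255 normalized counts in untreated cells, the narrowest spread of any member. It was at 362, 377 and 364 with ATRA and at 354, 279 and 396 with Am80. With the inhibitors it was at 212, 159 and 192 beside ATRA and at 195, 195 and 154 beside Am80. SMAD6 rose by a log2 change of 0.53 with ATRA (95% CI 0.28 to 0.77, adjusted p = 0.00189) and of 0.41 with Am80 (95% CI 0.17 to 0.66, adjusted p = 0.0108), with no overlap of libraries in either case. Without Am80 replicate 3 the rise with Am80 was 0.30 (adjusted p = 0.0779), and without both libraries that stand apart it was 0.56 (adjusted p = 0.000356). Adding the inhibitors lowered it by log2 changes of -0.98 (adjusted p = 3.23e-06) and -0.91 (adjusted p = 9.46e-06), the largest falls of any member on this addition. Each combination lay below untreated cells, by log2 changes of -0.45 and -0.49 (adjusted p = 0.00266 and 0.00138).

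SMAD7 (ENSG00000101665.10, chr18:48919853-48952052, minus strand), the inhibitory SMAD that brings ubiquitin ligases to the type I receptor, was highest in untreated cells, with 368, 342, 308 and 392 normalized counts. It was at 299, 246 and 272 with ATRA and at 336, 242 and 319 with Am80. The combinations were lower again, at 209, 189 and 221 with ATRA and at 206, 195 and 203 with Am80. SMAD7 fell by 0.37 on the log2 scale with ATRA (95% CI -0.60 to -0.13, adjusted p = 0.0196), a call that was lost without untreated replicate 1 (-0.35, adjusted p = 0.0510), ATRA replicate 2 (-0.30, 0.113) or ATRA replicate 3 (-0.37, 0.0540). With Am80 the libraries overlapped untreated ones, and the change was -0.25 (95% CI -0.48 to -0.01, adjusted p = 0.111), or -0.05 without both libraries that stand apart, and -0.31 and called with scaling to total reads (adjusted p = 0.0388). Adding the inhibitors lowered SMAD7 by log2 changes of -0.40 beside ATRA (adjusted p = 0.00981) and of -0.55 beside Am80 (adjusted p = 0.00105). The former call was lost without ATRA replicate 1 (-0.33, 0.0544), without replicate 2 of its combination (-0.34, 0.0521) and under quantile normalization (-0.29, 0.0534). Against untreated cells the combinations were at -0.77 and -0.80 (adjusted p = 6.90e-06 and 4.68e-06), with no overlap.

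SKIL (ENSG00000136603.15, chr3:170357678-170396835), the SMAD corepressor also known as SnoN, rose with each retinoid and rose further with the inhibitors. The untreated libraries held 1160.2, 1196, 1208 and 896 normalized counts. ATRA gave 2579.9, 2163 and 2544, and Am80 gave 2658, 2945 and 2432. The combinations gave 3844, 3762 and 3487 with ATRA and 3475, 3494 and 3268 with Am80. Untreated, retinoid and combination libraries formed 3 levels without overlap. The log2 changes from untreated cells were 1.13 with ATRA (95% CI 0.93 to 1.32, adjusted p = 5.83e-09) and 1.27 with Am80 (95% CI 1.07 to 1.46, adjusted p = 8.50e-10). Without both libraries that stand apart they were 1.03 and 1.10. Adding the inhibitors gave 0.61 beside ATRA (95% CI 0.40 to 0.82, adjusted p = 5.15e-05) and 0.35 beside Am80 (95% CI 0.14 to 0.56, adjusted p = 0.00810). The latter lost its call without Am80 replicate 3 (0.29, 0.0503), with scaling to total reads (0.23, 0.0873) and under quantile normalization (0.20, 0.137). The combinations stood 3.33-fold (ATRA) and 3.08-fold (Am80) above untreated cells.

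SKI (ENSG00000157933.11, chr1:2228695-2310119), the other corepressor, had 3749.9, 3213, 3783 and 2727 normalized counts in untreated cells. It had 5878, 6232 and 6087 with ATRA and 5959, 4783 and 6072 with Am80. The combinations held 5284, 5069 and 4933 with ATRA and 5393, 5387 and 5276 with Am80. All treated libraries lay above all untreated ones, the lowest being Am80 replicate 2. SKI rose by log2 changes of 0.86 with ATRA (95% CI 0.66 to 1.06, adjusted p = 4.47e-07) and of 0.74 with Am80 (95% CI 0.54 to 0.94, adjusted p = 3.60e-06). On adding the inhibitors to ATRA it fell by 0.25 on the log2 scale (adjusted p = 0.0454), without overlap of the libraries. That value lies close to the threshold: the call was lost on leaving out any 1 of the 9 libraries of ATRA and of the 2 combinations (log2 -0.28 to -0.23, adjusted p 0.0537 to 0.123) and without the filter on low values (adjusted p = 0.0988). Beside Am80 the change was -0.06 (95% CI -0.27 to 0.15, adjusted p = 0.680), and it was -0.17 and called without both libraries that stand apart (adjusted p = 0.0242).

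ID1 (ENSG00000125968.9, chr20:31605283-31606515), an inhibitor of basic helix-loop-helix factors, showed the largest change of any member in all 4 comparisons with untreated cells. Its normalized counts were 522, 442, 456 and 741 in the untreated libraries. They were 1949, 2135 and 2244 with ATRA and 2095, 1528 and 2209.5 with Am80. With the inhibitors they were 2549, 2289.9 and 2223 beside ATRA and 2718, 2772 and 2414 beside Am80. Every treated library lay above every untreated one, and the lowest treated library was Am80 replicate 2. ID1 rose 3.98-fold with ATRA (log2 1.99, 95% CI 1.70 to 2.28, adjusted p = 3.53e-10) and 3.63-fold with Am80 (log2 1.86, 95% CI 1.57 to 2.15, adjusted p = 1.06e-09). Against untreated cells the combinations gave log2 changes of 2.15 and 2.31, the larger with Am80. Adding the inhibitors to Am80 raised ID1 by 0.45 (95% CI 0.14 to 0.76, adjusted p = 0.0197), whereas the same addition to ATRA gave 0.16 (95% CI -0.15 to 0.47, adjusted p = 0.395), a value that was called with only the groups compared (0.0319) and without both libraries that stand apart (0.0497). The rise on adding them to Am80 lost its call without Am80 replicate 2 (log2 0.29, adjusted p = 0.118), without either replicate 1 (0.43, 0.0590) or replicate 2 (0.42, 0.0699) of the combination, and when libraries were scaled to total reads (0.33, 0.0651) or quantile normalized (0.33, 0.0891), but not without both libraries that stand apart (0.29, 0.00248).

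ID2 (ENSG00000115738.10, chr2:8678845-8684453), the other ID member, moved the opposite way. Its untreated libraries were at 753, 768, 755 and 877 normalized counts. ATRA gave 395, 399 and 461, and Am80 gave 541, 549 and 505. The combinations gave 429, 435 and 449 with ATRA and 446, 504 and 467 with Am80. No treated library reached the lowest untreated one. ID2 fell by 0.91 on the log2 scale with ATRA (95% CI -1.08 to -0.75, adjusted p = 1.07e-08) and by 0.57 with Am80 (95% CI -0.73 to -0.40, adjusted p = 1.02e-05). Against untreated cells the combinations stood at -0.85 (ATRA) and -0.74 (Am80) (adjusted p = 1.56e-08 and 1.11e-07). The change on adding the inhibitors was 0.07 (95% CI -0.11 to 0.24) with ATRA and -0.17 (95% CI -0.35 to 0.01) with Am80, neither called. With scaling to total reads the latter was -0.29 and called (adjusted p = 0.00474).

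**Figure D3:**
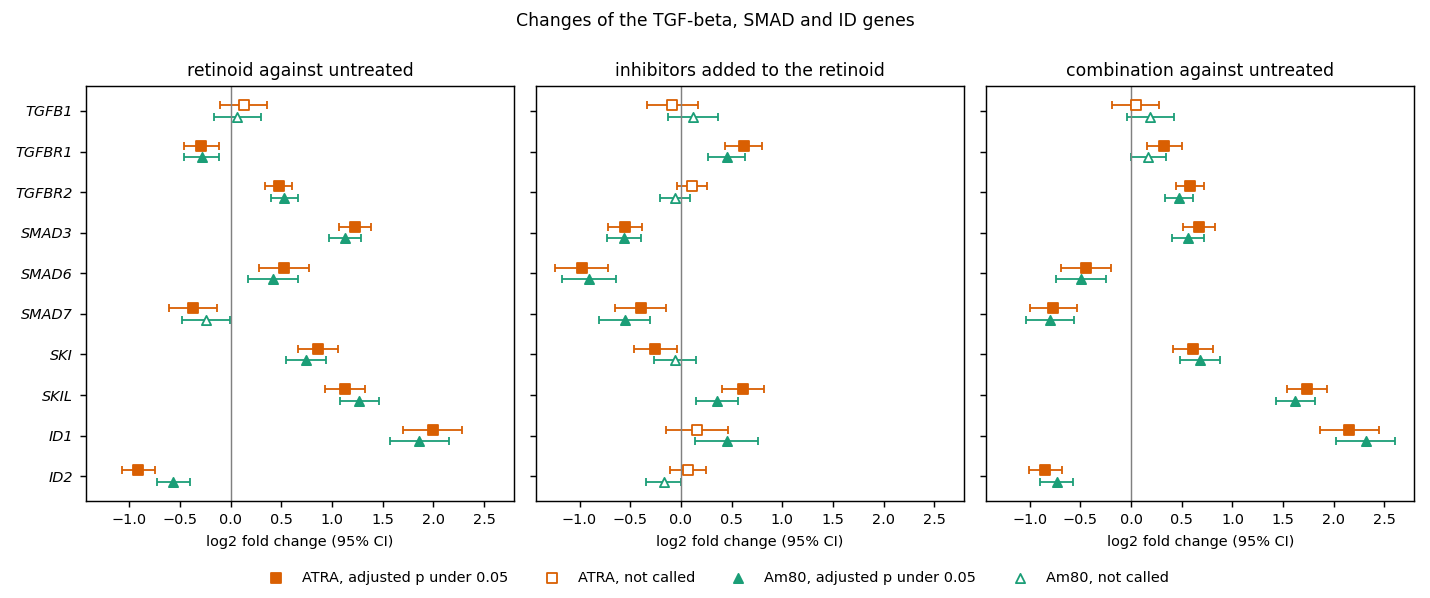
Log2 fold changes of the members with 95% confidence intervals, for each retinoid against untreated cells, for adding the inhibitors to the retinoid and for the combination against untreated cells, with filled symbols at an adjusted p under 0.05. Against untreated cells SMAD6 goes from 0.53 and 0.41 with ATRA and Am80 to -0.45 and -0.49 with the combinations, while ID1 lies between 1.86 and 2.31.

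Adding the inhibitors changed 6 members beside ATRA (SKIL and TGFBR1 higher, SMAD3, SMAD6, SMAD7 and SKI lower), against 49.3% of all genes tested (24.9% higher, 24.4% lower), and 6 beside Am80 (ID1, SKIL and TGFBR1 higher, SMAD3, SMAD6 and SMAD7 lower), against 39.5% (19.9% higher, 19.5% lower). The share of members called was therefore close to the background of these comparisons, and the median member change was -0.01 and -0.06, beside -0.02 and -0.01 for all genes. Against untreated cells the ATRA combination changed 9 members (6 higher, 3 lower), against 60.2% of all genes (30.2% higher, 30% lower), and the Am80 combination 8 (5 higher, 3 lower), against 54.7% (28% higher, 26.6% lower). Changes of at least 1.5-fold were called in 6 and 5 members for the combinations against untreated cells (29.1% and 26% of all genes), and in 3 and 1 on adding the inhibitors to ATRA and Am80 (19.5% and 15.7%). The members responded differently to this addition. SKIL moved further in the direction the retinoid had set, SMAD3 moved part of the way back, and SMAD6 passed the untreated level. TGFBR2 and ID2, called with both retinoids, were not called on the addition. TGFBR1 also passed the untreated level with ATRA and the inhibitors, from below to above, though not past the threshold with scaling to total reads or quantile normalization. SMAD3, SMAD6 and SMAD7 all fell on adding the inhibitors to either retinoid. With libraries scaled to total reads in place of size factors, the median of all genes moved downward on the log2 scale: to -0.15 for the ATRA combination and -0.19 for the Am80 combination against untreated cells, and to -0.16 and -0.13 for adding the inhibitors to ATRA and Am80. The genes called higher and lower then numbered 3159 and 5860 instead of 4422 and 4397, 2636 and 6028 instead of 4103 and 3901, 2225 and 5244 instead of 3648 and 3578, and 1836 and 4437 instead of 2916 and 2862. For Am80 alone they were 1751 and 2735 instead of 2253 and 1958. Changes of the members are relative to that choice of scale.

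Am80 and ATRA were compared directly at the same time and, by the study's figure legends, the same concentration. There was 1 pair without and 1 pair with the inhibitors, with p-values adjusted over all genes in each pair. No member was called in either comparison by limma, against 0.239% (0.184% higher, 0.0546% lower, 0.0478% at least 1.5-fold) and 0% of all genes tested. At an unadjusted p under 0.05 there was 1 member without the inhibitors and 0 with them. edgeR called 0 members in both, and DESeq2 called 1 and 0, where it called 344 of 10253 and 114 of 9543 genes. The member was ID2, at 532 ± 23.5 normalized counts with Am80 and 418 ± 37.0 with ATRA (SD, n = 3), with every Am80 library above every ATRA library. The difference was 0.35 on the log2 scale (95% CI 0.17 to 0.52, adjusted p = 0.0756 by limma, 0.0142 by DESeq2). It was called by limma without untreated replicate 4 (adjusted p = 0.0199), ATRA replicate 3 (0.0409) or Am80 replicate 3 (0.0319), and over all libraries left out in turn the adjusted p ran from 0.0199 to 0.543. With both libraries that stand apart left out it was 0.32 (adjusted p = 0.0255). With the inhibitors the ID2 difference was 0.11 (95% CI -0.07 to 0.29).

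For the other members the intervals describe differences between these libraries only. Each is a 95% interval without adjustment for the number of members, and the spread it rests on may be technical. Without inhibitors the difference was -0.10 for SMAD3 (95% CI -0.27 to 0.07), 0.06 for TGFBR2 (95% CI -0.09 to 0.20) and 0.01 for TGFBR1 (95% CI -0.18 to 0.19). It was 0.14 for SKIL (95% CI -0.07 to 0.35) and -0.12 for SKI (95% CI -0.33 to 0.09). Am80 replicate 2 was the highest Am80 library for SKIL and the lowest for SKI. Without both libraries that stand apart these 2 differences were 0.07 and -0.01. The intervals were wider for ID1 (-0.13, 95% CI -0.44 to 0.18), SMAD6 (-0.11, 95% CI -0.38 to 0.15), SMAD7 (0.12, 95% CI -0.13 to 0.37) and TGFB1 (-0.06, 95% CI -0.31 to 0.18). Am80 replicate 2 was the lowest Am80 library for these 4 genes, and without both libraries that stand apart the differences were 0.03, 0.03, 0.27 and 0.15. With the inhibitors the differences ran from -0.16 for TGFBR1 (95% CI -0.34 to 0.02) to 0.16 for ID1 (95% CI -0.15 to 0.47). The effect of the inhibitors was not shown to differ between the retinoids for any member. In the interaction limma, edgeR and DESeq2 each called 0 members. Over all genes tested, limma and edgeR called 0 of 14643 there and DESeq2 called 27 of 8831. By limma 0 members had an unadjusted p under 0.05. The largest estimates were 0.30 for ID1 (95% CI -0.14 to 0.73) and -0.26 for SKIL (95% CI -0.55 to 0.04). A p that misses the threshold does not show that the retinoids act alike.

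**Figure D4:**
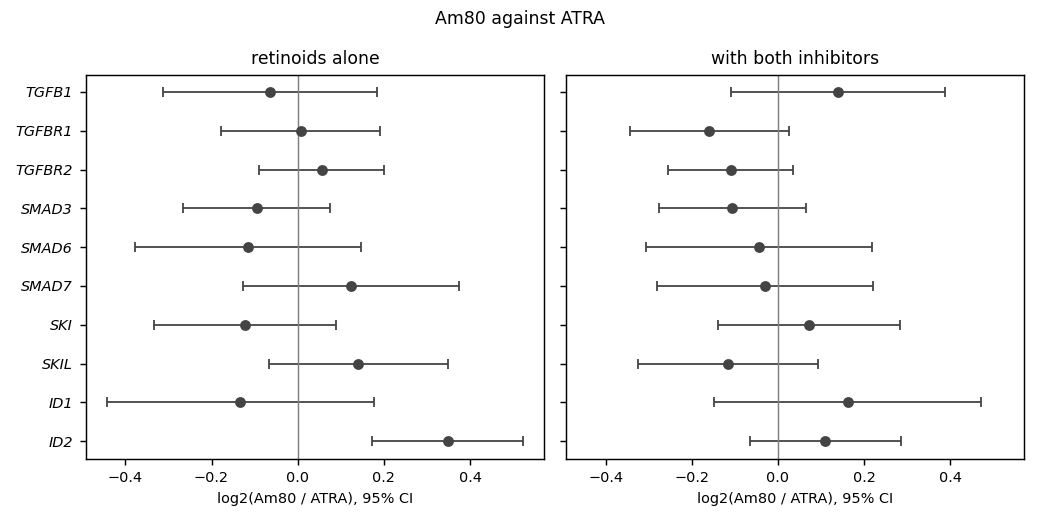
Difference between Am80 and ATRA for each member, as log2(Am80 / ATRA) with 95% confidence intervals, for the retinoids alone and with both inhibitors. ID2 without inhibitors (0.35) is the only member whose interval leaves out 0.

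The members that varied most over the 5 group means were ID1 (SD 0.95 on the log2 scale), SKIL (0.69) and SMAD3 (0.49), and TGFB1 varied least (0.07). Over the 16 libraries, among the 11301 genes whose mean reached 50 normalized counts, the genes most like ID1 were CEBPB (Pearson r = 0.993), NCF1C (0.992) and CTSD (0.990). CEBPB encodes a transcription factor of myeloid differentiation and CTSD the lysosomal protease cathepsin D, while NCF1C is a pseudogene whose reads may come from its near-identical relative NCF1. SKIL was most like DENND6A (0.994), XIAP (0.992) and TGFA (0.991), and SMAD3 was most like CLMN (0.987), PECAM1 (0.986) and ASAP2 (0.985). Between members, ID1 followed SKIL (r = 0.911) and ran against ID2 (-0.893), and SMAD6 ran against TGFBR1 (-0.888). These coefficients describe 16 libraries in 5 groups that share treatments and carry no test.

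Around the members, 67 other genes of the pathway were grouped in 6 lists, of which 58 passed the filter. ATRA changed 31 of them (16 higher, 15 lower) and Am80 30 (16 higher, 14 lower), which is 53.45% and 51.72% of the lists beside 24.6% and 28.8% of all genes. Adding the inhibitors changed 35 beside ATRA (20 higher, 15 lower) and 25 beside Am80 (16 higher, 9 lower), or 60.34% and 43.1% beside 49.3% and 39.5% of all genes. The combinations changed 43 (26 higher, 17 lower) and 40 (23 higher, 17 lower) against untreated cells, or 74.14% and 68.97% beside 60.2% and 54.7%. The same shares of all genes stand behind the counts of each list. The lists too were chosen with earlier results of these data known, so shares above those of all genes are a description. LRRC32 and SMAD1 had a mean under 10 normalized counts in untreated cells and passed the filter only through the groups where they were higher, so the counts that hold them are a description. SPHK1 in the ATRA combination (6.52 to 12.5) and INHBA with ATRA (5.78 to 12.9) were near this limit, so the same holds for them. The median change of the 58 genes was -0.004 with ATRA and 0.01 with Am80, beside -0.02 and -0.01 for all genes, so that the lists as a whole moved in both directions. No gene of the lists was called between Am80 and ATRA by limma, without or with the inhibitors, or in the interaction, where 4, 5 and 6 genes had an unadjusted p under 0.05. edgeR called 0 in each, and DESeq2 called 0, 2 and 0.

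**Figure D5:**
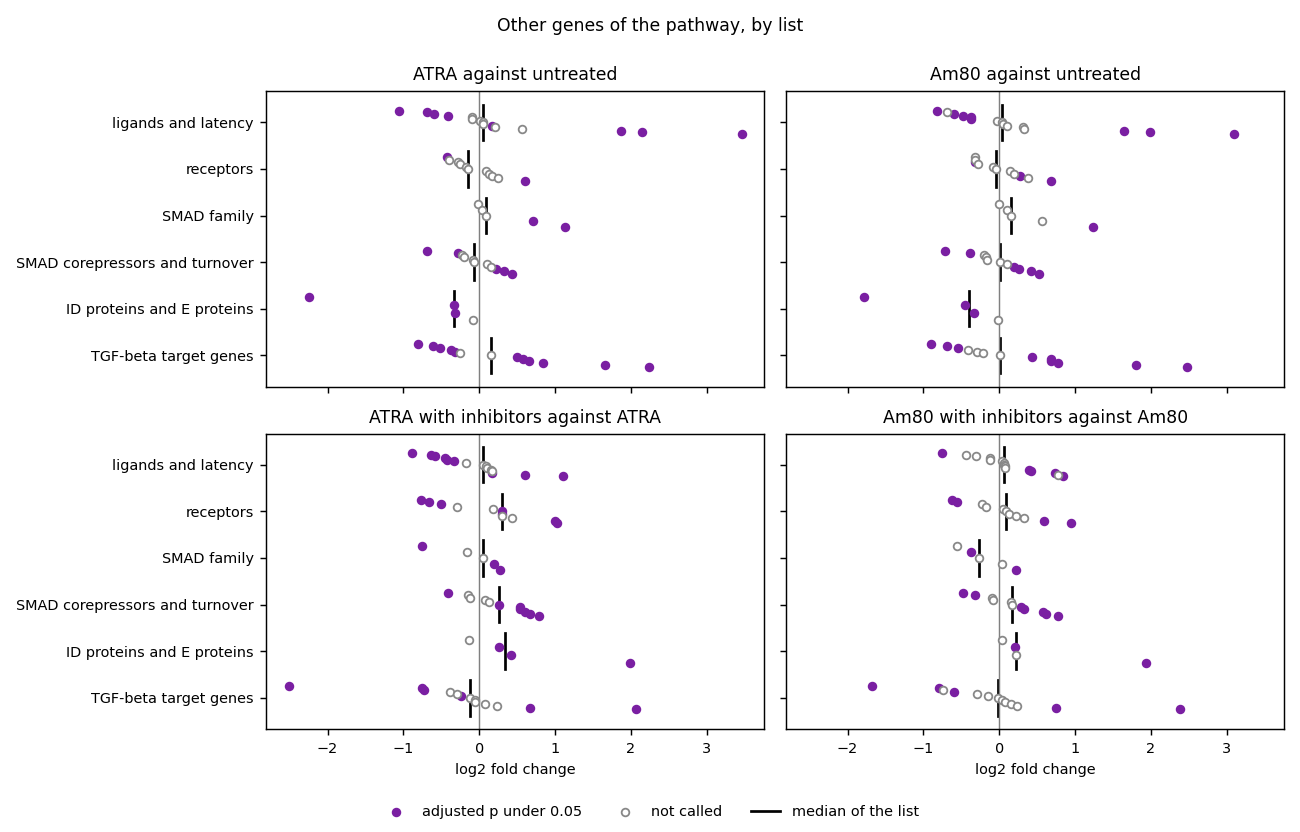
Log2 fold changes of the tested genes of each list other than the members (points, filled at an adjusted p under 0.05), with the median of each list as a bar, for each retinoid against untreated cells and for adding the inhibitors. LRRC32, with 1 to 2 reads in each untreated library, is the point farthest to the right under the retinoids, at a fitted value that depends on the pseudocount, and ID3 is far to the left under the retinoids and far to the right on adding the inhibitors.

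Of 15 tested ligand and latency genes, 4 rose and 4 fell with ATRA, and 3 rose and 5 fell with Am80. LTBP3, a latent TGF-beta binding protein, stood at 255 ± 8.87 normalized counts untreated (SD, n = 4). It stood at 939 ± 77.0 after ATRA and 805 ± 140.1 after Am80 (SD, n = 3), log2 changes of 1.88 and 1.64. THBS1, thrombospondin 1, which can activate latent TGF-beta, went from 33.1 ± 7.88 to 147 ± 1.80 and 131 ± 11.4 (log2 2.15 and 1.98). LRRC32, the GARP protein that holds latent TGF-beta at the cell surface, had 5 reads over the untreated libraries and 92 and 89 reads over the ATRA and Am80 libraries. The ratio per unit of sequencing was 17.99 for ATRA (95% interval of counting error 7.44 to 56.7) and 14.2 for Am80 (5.87 to 44.8). On adding the inhibitors, GDF11, a ligand of the activin receptors, fell by 0.89 beside ATRA and by 0.75 beside Am80, while BMP8B, a BMP ligand whose reads are uncertain because of its close copy BMP8A, rose by 0.61 and 0.73. In this list 3 genes rose and 6 fell beside ATRA, and 4 rose and 1 fell beside Am80.

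Of 11 other receptors, ATRA raised 1 and lowered 1, and Am80 raised 2 and lowered 1. ACVRL1, a type I receptor also called ALK1, rose by 0.60 and 0.69, from 67.3 ± 3.41 to 103 ± 4.72 and 109 ± 12.2 normalized counts. On adding the inhibitors 4 receptors rose and 3 fell beside ATRA, and 2 rose and 2 fell beside Am80, shares of 63.64% and 36.36% where 49.3% and 39.5% of all genes were called. ACVR1, a BMP type I receptor, rose by 0.997 and 0.593, and ACVR2A, an activin type II receptor, rose by 1.02 and 0.95. ACVR2B, the other activin type II receptor, fell by 0.77 and 0.62 on the log2 scale. The rise of ACVR2A beside Am80 was 0.78 and not called without Am80 replicate 3 (adjusted p = 0.05705).

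Of the 5 other SMADs, SMAD1, a BMP-activated SMAD, was at 7.78 ± 2.42 normalized counts in untreated cells, at 17.8 ± 2.41 with ATRA and at 19.2 ± 0.952 with Am80, values given as a description because of the filter. SMAD4, the shared partner of the receptor SMADs, had log2 changes of 0.09 and 0.16 with the retinoids, neither called, and rose by 0.28 and 0.22 on adding the inhibitors to ATRA and Am80. Neither rise was called with scaling to total reads (0.13 and 0.10, adjusted p = 0.153 and 0.289) or quantile normalization (0.16 and 0.13, 0.0690 and 0.173), and the one beside Am80 was not called without Am80 replicate 3 (0.19, 0.0724). Among 11 other genes of corepression and turnover, 3 rose and 2 fell with ATRA and 4 rose and 2 fell with Am80. TGIF1, a corepressor that also limits retinoid signaling, fell by 0.68 and 0.72. NEDD4L and SMURF2, ubiquitin ligases that act on SMADs and receptors, rose by 0.43 and 0.52 and by 0.33 and 0.42. On adding the inhibitors 6 rose and 1 fell beside ATRA and 5 rose and 2 fell beside Am80. The ligases SMURF1 (0.67 and 0.77), WWP1 (0.79 and 0.61) and RNF111 (0.60 and 0.58) led these rises.

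Among 4 tested ID and E protein genes, ATRA and Am80 each lowered 3 and raised none. ID3 went from 65.7 ± 12.1 normalized counts in untreated cells to 13.9 ± 6.41 with ATRA and 18.2 ± 2.51 with Am80, falls of 2.25 and 1.78 on the log2 scale. It rose by 1.99 and 1.93 on adding the inhibitors, to 53.9 ± 1.005 and 72.3 ± 9.13, and the combinations were not called against untreated cells (-0.26 and 0.15). The 3 ID genes with enough reads thus showed 3 patterns: ID1 was high in every treated group, ID2 low in every treated group, and ID3 low with a retinoid alone. TCF4 and TCF3, E proteins that the ID proteins bind, fell by 0.34 and 0.45 and by 0.33 and 0.34 with ATRA and Am80. TCF12, another E protein, rose by 0.42 and 0.21 on adding the inhibitors to ATRA and Am80. The call of TCF4 with ATRA was lost without any 1 of untreated replicates 1 to 3 or ATRA replicates 2 and 3 (log2 -0.33 to -0.28, adjusted p 0.0549 to 0.0796) and with only the groups compared (0.0663). That of TCF12 beside Am80 was lost without Am80 replicate 1 or 3 or any library of the Am80 combination (0.17 to 0.23, 0.0549 to 0.133), by edgeR (0.0576), with no filter on low values (0.0875) and with scaling to total reads (0.09, 0.431) or quantile normalization (0.11, 0.317).

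Of 13 tested genes known as TGF-beta targets, 6 rose and 5 fell with ATRA, and 6 rose and 3 fell with Am80. CCN2, connective tissue growth factor, rose by 1.66 and 1.81 from a low level of 12.4 ± 5.68 normalized counts. CDKN2B, the cell cycle inhibitor p15, fell by 0.81 and 0.90. Adding the inhibitors raised 2 and lowered 4 genes of this list beside ATRA and raised 2 and lowered 3 beside Am80. SNAI1, a transcriptional repressor, rose by 2.07 and 2.39, to 525 ± 73.6 and 734 ± 74.9. SPHK1, sphingosine kinase 1, fell by 2.51 and 1.68 on the log2 scale. It was at 49.0 to 56.9 normalized counts with ATRA and at 6.52 to 12.5 with ATRA and the inhibitors. With Am80 it was at 48.7 to 74.5, and at 12.9 to 21.9 with the inhibitors. At such low counts the fitted fall depends on the pseudocount. BHLHE40, a basic helix-loop-helix repressor, fell by 0.76 and 0.79.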

How the data were processed

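RNA-seq was measured in 16 libraries of OCI-AML3 cells. The values are signal values, DESeq2-normalized counts that the authors deposited as 1 table. The submitters' processing notes name FastQC, cutadapt, STAR, featureCounts and DESeq2, without versions. The genome build, annotation and strand setting are not given in the sources used here. The labels and the study's methods name different RNA and library kits. Multiplied back by the size factor of their library, 100% of the values came out as whole reads within 0.01. All 62700 identifiers carried a symbol.

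Genes whose mean reached 10 were analysed on the log2(normalized count + 1) scale, which understates changes of low genes. limma 3.58.1 (R 4.3.3, trend, not robust) was fitted with 1 coefficient per group over all 16 libraries, with Benjamini-Hochberg adjustment in each of 9 comparisons. The alternatives were a limit of 1.5-fold, pseudocounts of 0.5 and 5, no filter and a mean of at least 50, scaling to total reads, quantile normalization, only the groups compared, the replicate number as a block, each library left out in turn, edgeR 4.0.16 and DESeq2 1.42.0 on the recovered reads, and, chosen after seeing the data, leaving out both libraries that stand apart. The fit with the block left out untreated replicate 4. edgeR called 3737 genes with ATRA and 4457 with Am80, beside 3609 and 4211 with limma, 8760 and 7813 for the ATRA and the Am80 combination against untreated cells, 7301 and 5897 for adding the inhibitors, 88 between Am80 and ATRA, and 0 between the combinations and in the interaction. DESeq2 called 344, 114 and 27 in these last 3 comparisons. The fit was tested on simulated data. The pathway genes named were, per list, up to 3 with the largest mean change over both retinoids among those called the same way with both, separately for the retinoids and for adding the inhibitors. Some genes that this rule or the marker lists hold are not reported here. The similar genes were the 3 with the highest r for each of the 3 most variable members. The members and lists were chosen with earlier results of these data known. Gene lengths and overlaps came from GENCODE 29 (GRCh38), promoters from RefSeq. Libraries held 11963898 to 33789718 reads. Intervals of reads cover counting error only. Figures used Python 3.11.15 with numpy 2.4.6, pandas 2.3.3 and matplotlib 3.10.9.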

Additional observations from a re-analysis of the deposited data

Results flagged for a closer look

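In the 4 untreated libraries, 37 genes (the members and the named pathway genes) were checked for a library whose gap to the nearest other exceeded Dixon's 95% critical value for 4 values. This check flags about 1 in 20 groups by chance, and here 4 of 37 genes passed it, in each case through untreated replicate 4. The share over all genes was not computed. Untreated replicate 4 stood apart over all genes with enough reads, at a chi-square per degree of freedom of 17.1 to 25.3 against its group. The other untreated pairs gave 3.80 to 5.46. Whether the flags belong to these genes or to that library was not tested. SKIL was lowest there, at 896.3 normalized counts against 1160.2 to 1208 in the other untreated libraries. ID2 was highest there, at 877.5 against 753 to 768. ACVR2B was lowest, at 167.3 against 257 to 263, and NEDD4L was lowest, at 149.6 against 184 to 189. No member or list gene passed the threshold in the interaction of retinoid and inhibitors.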

How the results depend on the processing

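Requiring a 1.5-fold change left 5 members for ATRA, 4 for Am80 and 5 for the Am80 combination against untreated cells. It left 3 and 1 for adding the inhibitors to ATRA and Am80. Of the 58 tested pathway genes it left 17 for ATRA, 16 for Am80 and 24 for each combination against untreated cells. For adding the inhibitors to ATRA and Am80 it left 18 and 14 of them. In the same order, 9.45%, 10.2%, 29.1% (ATRA combination), 26% (Am80 combination), 19.5% and 15.7% of all genes passed this limit. Between Am80 and ATRA, 1 member (ID2) was called with the replicate block, with DESeq2 and without both libraries that stand apart. The block setting left out untreated replicate 4, and limma called ID2 without that library and without a block too (adjusted p = 0.0199). With 1 library left out, 0 to 1 members and 0 to 1 pathway genes were called. Between the combinations, 5 pathway genes were called with only the groups compared, 3 with the replicate block, 8 without both libraries that stand apart, 2 with DESeq2 and 0 to 3 with 1 library left out. The causes were not tested.

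Sign changes were limited to differences that were not called. Scaling to total reads turned TGFB1 to -0.1008 (ATRA combination against untreated) and -0.0025 (inhibitors added to Am80), TGFBR1 to -0.0162 (Am80 combination against untreated) and -0.0517 (Am80 against ATRA), TGFBR2 to -0.0383 (inhibitors added to ATRA) and -0.0034 (Am80 against ATRA), ID2 to -0.0785 (inhibitors added to ATRA) and the SMAD3 interaction to 0.0126. Quantile normalization turned TGFB1 to -0.0108 (Am80 against untreated), -0.142 and -0.0321 (ATRA and Am80 combination against untreated) and -0.0213 (inhibitors added to Am80), and TGFBR1 to -0.0531 (Am80 combination against untreated) and -0.0186 (Am80 against ATRA). Leaving out both libraries that stand apart turned TGFB1 to -0.0942 (inhibitors added to Am80), 0.1508 (Am80 against ATRA) and -0.0111 (interaction), SMAD6 to 0.0274 (Am80 against ATRA) and -0.0719 (interaction), and, for Am80 against ATRA, TGFBR1 to -0.0354 and ID1 to 0.0311.

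With 1 library left out in turn, the signs that changed gave ranges of -0.0514 to 0.2811 (TGFB1, Am80 against untreated), -0.0041 to 0.0887 (TGFB1, ATRA combination against untreated), -0.0942 to 0.2384 and -0.1686 to 0.0035 (TGFB1 and SKI, inhibitors added to Am80), -0.1817 to 0.1508, -0.2262 to 0.0274, -0.0536 to 0.0746 and -0.2348 to 0.0311 (TGFB1, SMAD6, TGFBR1 and ID1, Am80 against ATRA), -0.1593 to 0.0672 and -0.0906 to 0.0196 (SMAD6 and SMAD7, between the combinations), and -0.0111 to 0.3214, -0.0719 to 0.1817 and -0.0934 to 0.0398 (TGFB1, SMAD6 and SMAD3, interaction).

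No clear pairing of the libraries by replicate number was seen, though this check cannot exclude one. Deviations of same-numbered libraries correlated at -0.112 to 0.143 (median 0.001), with 2 of 30 pairs over 0.1. Those of differently numbered libraries correlated at -0.177 to 0.173 (median -0.005). Of 15 libraries, 7 correlated best with their own number. With the replicate block, a fit that also left out untreated replicate 4, the counts of members called were otherwise as reported. Over all genes, the calls between Am80 and ATRA were then 414 instead of 35, and those between the combinations 701 instead of 0. Without a block, leaving out each library in turn gave 0 to 458 and 0 to 646 calls in these comparisons. The block's own part in these counts was therefore not tested. Without both libraries that stand apart these counts were 516 and 2304, with only the groups compared 0 and 1975, with edgeR 88 and 0, and with DESeq2 344 and 114.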
